A study of Mus musculus with 3 samples.

Results

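The antigen-presentation, interferon and cytokine-signalling genes described here are the 209 probe sets on the array whose single annotated gene symbol belongs to the major histocompatibility complex (MHC, symbols beginning H2-, with B2m, Tap1, Tap2, Tapbp, Cd74 and Ciita), to the interferon system, to the JAK, STAT and SOCS families, or to the interleukins, chemokines and their receptors. They were taken by symbol alone, a rule that uses no measured values, though earlier results of these data were known. Of the 209, 2 are control probe sets for Il4 and Il10, and the other 207 stand among 12422 non-control probe sets. They read 173 of the 8251 genes with a name on the array. Total RNA came from mouse neural retina at postnatal day 7, in 1 group of 3 arrays with no second condition. Each array measured pooled retinas of 3 to 4 wild-type mice of mixed 129/SvEv and C57BL/6 background, littermates of Rp1-/- animals, taken in the early afternoon, so each value is an average over animals. The sample titles name the array as U74Av2, an Affymetrix design that reads a gene through sets of short probes, and the pools are numbered 1 to 3 as names only. In whole tissue, few cells of a type and little RNA per cell cannot be told apart.

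MHC class I molecules, made of a heavy chain and beta-2-microglobulin, show peptides from inside the cell to cytotoxic T cells, and class II molecules on professional antigen-presenting cells show peptides to helper T cells. Interferons act through receptors coupled to JAK kinases, which phosphorylate STAT transcription factors. STAT complexes and the interferon regulatory factors (IRFs) then induce a large set of antiviral and antigen-presentation genes, and SOCS proteins damp the response. The neural retina is an immune-privileged tissue, in which microglia are the main resident immune cells. The same JAK and STAT proteins also serve growth factor and neurotrophic cytokine receptors in developing neurons and glia.

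Few of these genes gave signal above background. To count as above background, a gene's scaled intensity had to pass, in each of the 3 pools, the 90th percentile of 81 genes specific to unrelated tissues such as liver, pancreas, testis and skin. This bar was 279, 263 and 295 in pools 1, 2 and 3. Of all genes, 46.3% passed it in every pool. Of the 81 off-tissue genes 4 did (4.94%), among them Tff1 at 937, 1297 and 1796, so a pass does not by itself show expression. Of the 173 genes described here 14 did (8.09%), 20 passed in 1 or 2 pools, and 139 passed in none (80.3%, against 42.5% of all genes). By probe set, 19 of 207 passed in every pool (9.18%), against 39.7% of all probe sets. In single pools 12.7%, 13.9% and 14.5% of the genes passed, against 52.4%, 53.4% and 50.1% of all genes and, by the way the bar is set, 9.88% of the off-tissue genes. A bar at the 75th percentile gave 38 genes (22.0%) against 61.5% of all genes, and asking only that the mean pass the mean bar gave 25 (14.5%) against 52.3%. Of the 14 genes, H2-T18, Ifna5, Stat5a and Jak2 were no longer above a bar at the 95th percentile, and the last 3 of these were not when every gene, off-tissue genes included, was read by its brightest probe set.

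**Figure D1:**
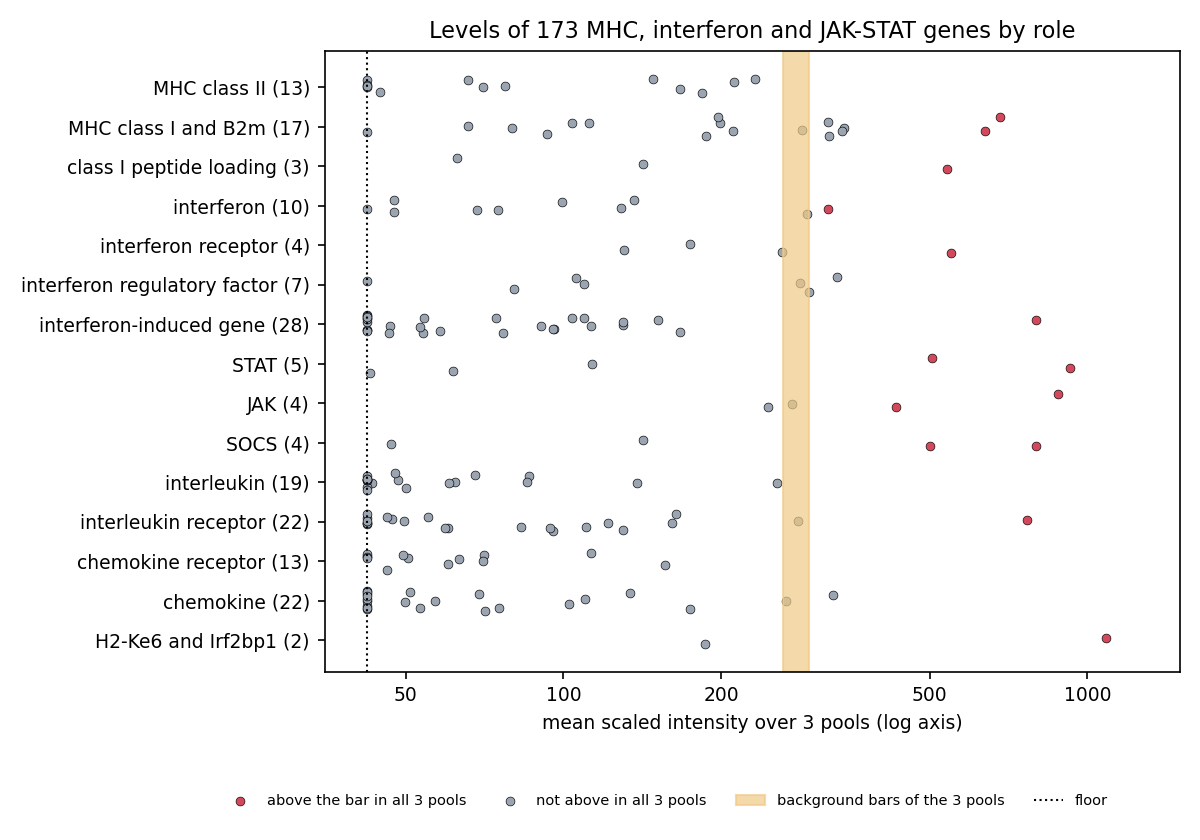
Mean scaled intensity over 3 pools (log axis) of each of the 173 genes, by role, with the number of genes in brackets. Red points are the 14 genes above background in all 3 pools, the shaded band spans the 3 background bars (263 to 295), and the dotted line is the floor at 42.2. The chemokine, chemokine receptor, interleukin, interferon regulatory factor and class II rows hold no red point.

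The median intensity of the 173 genes was 71.7, 69.9 and 63.6 in pools 1, 2 and 3, against 310, 303 and 295 for all genes. The median place of the genes in the brightness order of their array was at the 23.1th, 21.6th and 20.2th percentile. The off-tissue genes had medians at the 20.1th, 17.3th and 19.8th percentile. Values under 42.2, the 20th percentile of all scaled values, were set to that floor and have no order. At the floor in all 3 pools were 43 of the 173 genes (24.9%), against 7.95% of all genes. None of the 173 reached a mean above the 90th percentile, and 3 (Irf2bp1, Stat3 and Jak1) lay above the 75th. Probes differ in how strongly they bind, so brightness ranks describe signal and do not order the amounts of different transcripts.

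**Figure D2:**
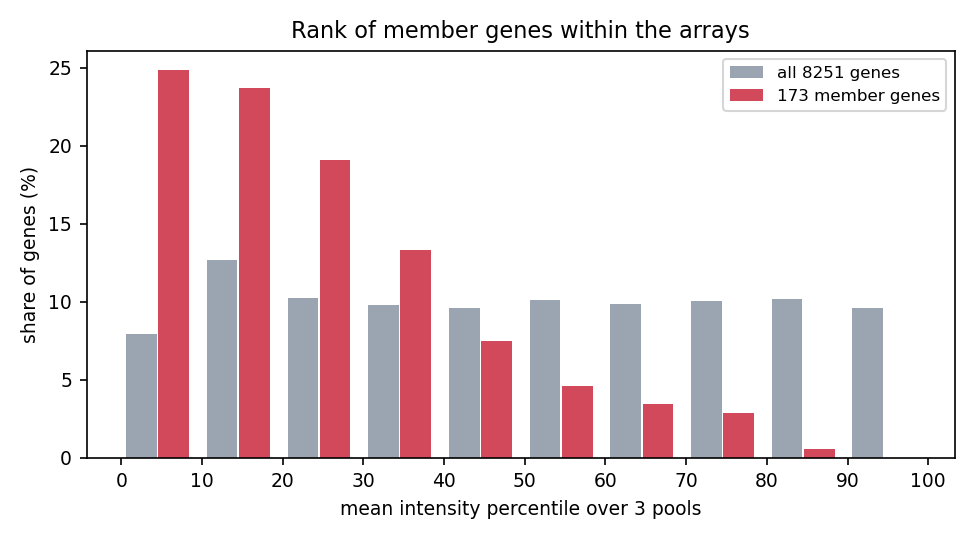
Share of genes (vertical axis, percent) in each 10-point bin of the mean intensity percentile over 3 pools, for the 173 genes (red) and all 8251 genes (grey). The 2 lowest bins hold 24.9% and 23.7% of the red genes, and the 2 highest hold 0.58% and 0.

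Signal under the bar is no proof of silence. Ptpn11, a phosphatase gene used by almost every cell, was at the floor in all 3 pools, and Calr, the gene of an abundant chaperone, was at 50.4, 42.2 and 42.2. No value here therefore says that a transcript was absent.

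Among the class I genes, 2 of 17 were above background in all 3 pools and 7 in 1 or 2. H2-D1, a classical class I heavy chain, had intensities of 594, 647 and 668 in pools 1, 2 and 3 (mean 636 ± 38.4, where ± gives the SD over n = 3 pools here and throughout). The 3 pools lay close together. H2-T18, a non-classical class I gene, was at 424, 525 and 1097 (682 ± 363), with pool 3 well above the other two. B2m, the light chain that all class I molecules share, was below the bar in every pool at 209, 192 and 159 (187 ± 25.2).

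H2-K1, the other classical heavy chain, depended on the probe set. The one that represents the gene here read 163, 104 and 330 and passed in pool 3 only. A second, of a type whose probes can match several members of a gene family, read 413, 481 and 383 and passed in each pool. The last was at or next to the floor. H2-D1 was read by family-type probe sets alone, of which another gave 256, 415 and 263 and the last 69.0, 42.2 and 52.9. Class I genes are close paralogs, so values of single members are uncertain. Of the 26 genes with several probe sets, 5 had probe sets that disagreed on passing in all pools (H2-D1, H2-K1, Tapbp, Jak2 and H2-Ke6). Family-type probe sets passed in 6 of 30 cases, against 32.8% of all family-type probe sets, and those with no letter suffix in 11 of 158 (6.96%, against 42.6% of all such probe sets).

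Peptide loading of class I molecules was represented by 3 genes. Tapbp encodes tapasin, which bridges class I molecules to the peptide transporter. It was above background at 521, 582 and 516 (540 ± 37.0), and its second probe set gave 493, 490 and 562. Its last gave 356, 405 and 241, below the bar in pool 3. The transporter subunit genes were not above it in any pool: Tap1 was at 101, 143 and 181 and Tap2 at 59.9, 85.4 and 42.2.

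**Figure D3:**
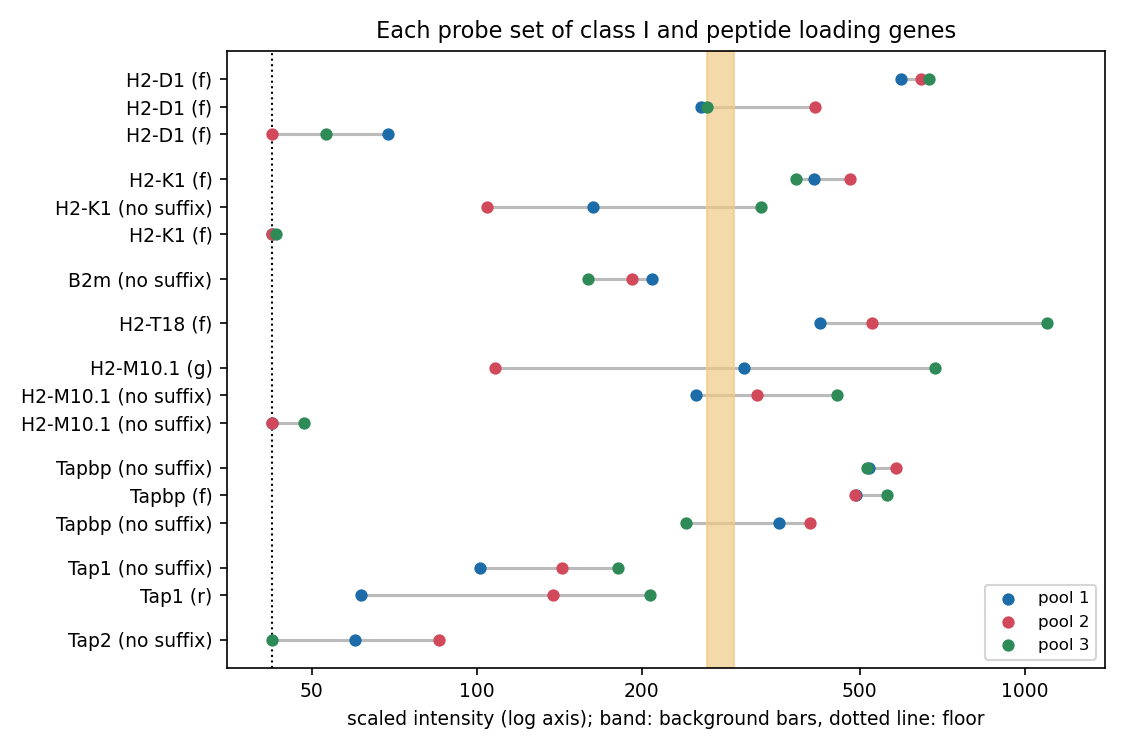
Scaled intensity (log axis) of each probe set of 8 class I and peptide loading genes in the 3 pools (coloured points, grey lines their range). Letters in brackets give the probe set type, f marking probes that can match several members of a family. The band spans the background bars and the dotted line is the floor. Probe sets of H2-D1 and H2-K1 lie on both sides of the band, and the one of B2m lies below it.

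No class II gene was above background in all 3 pools, of 13 measured. The chain genes H2-Aa and H2-Ab1 were at the floor in every pool, as was H2-Eb2. Cd74, the invariant chain that escorts class II molecules, was at 227, 219 and 188 (211 ± 20.4). Ciita, the transactivator that switches class II genes on, was at 145, 194 and 162. H2-DMa, whose product helps load peptides, was the single class II gene with pools above the bar, at 87.5, 302 and 307. Its second probe set, of the family type, was under the bar in every pool at 64.7, 97.1 and 65.7. H2-DMa, like H2-Eb2, was outside the rule for named genes and was picked after its values were seen.

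Of the 10 interferon genes, Ifna5 alone passed in all pools, at 290, 334 and 336, just above the bar in pool 1. Ifna5 is read by a family-type probe set, and interferon alpha genes are near-identical copies. Ifnb1, the interferon induced early by virus sensing, was at 90.9, 92.4 and 42.2, and Ifng, the interferon of T and NK cells, was at the floor in pools 1 and 2 and at 58.0 in pool 3. Of the receptor genes, Ifnar1, a chain of the type I receptor, was above background at 400, 705 and 541 (549 ± 153), lowest in pool 1. Its partner Ifnar2 was at 140, 129 and 121. For the interferon gamma receptor, Ifngr1 was at 195, 178 and 150, and Ifngr2 at 237, 303 and 246, above the bar in pool 2 only.

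None of the 7 IRFs was above the bar in every pool, and 3 were above it in pools 1 and 2. Irf3, a transcription factor that is phosphorylated downstream of virus sensors, was at 405, 360 and 234 and passed in pools 1 and 2. Its other probe set, of the family type, was under the bar in every pool at 62.1, 59.1 and 58.2. Irf9, the DNA-binding part of the main type I interferon complex, passed in pools 1 and 2 at 340, 273 and 236. Irf5, outside the rule for named genes, missed it in pool 3 alone, at 302, 299 and 281. Irf1 was at 94.9, 118 and 116. Irf7, itself induced by interferon, was at the floor in pool 1, at 92.8 in pool 2 and at 182 in pool 3. Another probe set of Irf7 gave 199, 219 and 295, so that both were highest in pool 3. Without pool 3, Irf9, Irf5 and, by its chosen probe set, Irf3 passed in each remaining pool.

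Interferon-induced genes were at the low end. Of 28 measured, 27 passed the bar in no pool and 9 were at the floor in all. Ifit1 and Oas1g, antiviral effector genes, were among the 9. Mx1 was at 54.7 in pool 1 and at the floor in the others, and Ifit3 was at 42.2, 90.1 and 42.2. Isg15, a ubiquitin-like modifier, was at the floor in pools 1 and 2 and at 244 in pool 3, still under the bar. Ifitm10 was the exception at 554, 904 and 940 (799 ± 213). It was placed in this role by its symbol, as a member of the interferon-induced transmembrane family, and its induction was not tested. Of its relatives, Ifitm1 was at 133, 223 and 144 and Ifitm2 at 88.6, 175 and 191, each under the bar.

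Some promoters of these genes carry a motif that interferon-activated factors are known to bind. Many of the symbols name interferon induction, so the choice by symbol is not independent of this motif. Promoters were taken from RefSeq (GRCm38.p6) as 250 bases before to 50 after each start, and 135 of the 173 genes matched by symbol, with 163 promoters. The motif of the interferon-stimulated response element was searched as GAAA, any 2 bases, then GAAA, on both strands, with overlapping matches counted. It was found in 13 of 29 promoters of interferon-induced genes (44.8%), in 7 of 9 of interferon genes (77.8%) and in 27 of all 163 (16.6%). Of all 32851 promoters in the table, 3.44% held it. Other roles with a match were class I (1 of 12), STAT (1 of 8), SOCS (1 of 2) and interleukin (1 of 23). Interleukin receptors (1 of 20) and chemokines (2 of 17) were the last. The following lines give the 150 bases before the start of 5 interferon-induced genes, of B2m and Socs1, which also matched, and of Stat3 and Jak1, 2 genes above background with no match in this window. Capitals mark the matches.

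Isg15 (chr4:156200819-156200968, minus strand): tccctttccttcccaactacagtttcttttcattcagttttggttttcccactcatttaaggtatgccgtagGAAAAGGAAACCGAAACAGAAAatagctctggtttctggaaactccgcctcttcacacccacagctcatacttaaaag
Ifit1 (chr19:34640739-34640888, plus strand): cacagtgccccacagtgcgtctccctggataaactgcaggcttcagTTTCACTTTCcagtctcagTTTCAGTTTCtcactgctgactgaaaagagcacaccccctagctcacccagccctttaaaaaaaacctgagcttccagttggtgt
Gbp3 (chr3:142559894-142560043, plus strand): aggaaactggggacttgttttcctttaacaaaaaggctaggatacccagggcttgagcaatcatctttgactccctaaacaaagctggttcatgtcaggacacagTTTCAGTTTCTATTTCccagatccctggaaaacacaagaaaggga
Irgm1 (chr11:48871421-48871570, minus strand): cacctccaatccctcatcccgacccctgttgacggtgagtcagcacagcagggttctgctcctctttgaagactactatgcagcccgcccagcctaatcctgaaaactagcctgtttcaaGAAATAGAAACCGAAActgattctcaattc
Oas1g (chr5:120887614-120887763, minus strand): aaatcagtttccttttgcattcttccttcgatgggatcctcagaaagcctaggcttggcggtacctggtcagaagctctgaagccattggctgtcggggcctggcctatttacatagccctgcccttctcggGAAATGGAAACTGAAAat
B2m (chr2:122147537-122147686, plus strand): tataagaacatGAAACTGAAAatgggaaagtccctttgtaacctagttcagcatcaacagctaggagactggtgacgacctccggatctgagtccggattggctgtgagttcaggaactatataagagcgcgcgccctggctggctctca
Socs1 (chr16:10785537-10785686, minus strand): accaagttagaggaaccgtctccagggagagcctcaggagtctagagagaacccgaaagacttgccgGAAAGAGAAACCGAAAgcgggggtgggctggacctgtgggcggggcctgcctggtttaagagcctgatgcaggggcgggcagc
Stat3 (chr11:100939541-100939690, minus strand): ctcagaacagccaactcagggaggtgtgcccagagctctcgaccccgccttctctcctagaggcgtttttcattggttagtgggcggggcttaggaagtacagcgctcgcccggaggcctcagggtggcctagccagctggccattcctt
Jak1 (chr4:101265224-101265373, minus strand): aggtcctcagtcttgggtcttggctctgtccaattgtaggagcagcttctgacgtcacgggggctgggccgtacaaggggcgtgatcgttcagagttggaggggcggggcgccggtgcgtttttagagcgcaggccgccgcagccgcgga

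Isg15 holds 3 overlapping matches, whose first bases lie 78, 72 and 66 before the start, and Irgm1 has 2 that begin 30 and 24 before it. In B2m the match begins 139 bases before the start. Of the 27 genes with a match, 1 (Ifna5, 3.7%) was above background in all pools. Of the 108 members without one, 9 were (8.33%). Among measured genes outside the group, 98 of 229 with the motif were above background (42.8%), against 47.7% of all measured genes with a promoter. The STAT-type motif, searched as TTCNNNGAA, stood in 30 of the 163 promoters (18.4%) and in 8.3% of all promoters. Of the 30 genes with it 3 were above background (10%), against 41.4% of measured genes outside the group that hold it. Of the 105 members without it 7 were (6.67%). A match describes letters and does not show binding.

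Intracellular signalling genes held 6 of the 14 genes above background. Of the 13 JAK, STAT and SOCS genes these were 46.2%, close to the share of all genes. This grouping, like those of ligands and receptors below, was made after the values were seen. Jak1, the kinase shared by most interferon and cytokine receptors, was at 889, 934 and 809 (877 ± 63.3). Jak2, which serves growth hormone and interferon gamma receptors among others, was at 499, 372 and 422, though its second probe set was at or near the floor. Tyk2, the partner of JAK1 at the type I interferon receptor, was at 255, 407 and 155 and passed in pool 2 alone. Jak3, a kinase of lymphoid cells, was at 53.7, 247 and 435, so that it passed in pool 3 and was far below the bar in pool 1. Its probe set is of a type that can be shared between transcripts.

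Stat3, the STAT of the interleukin-6 and ciliary neurotrophic factor family, was at 940, 862 and 972 (925 ± 56.3). Its second probe set also passed in every pool, at 426, 374 and 385. Stat5a, a STAT of growth hormone and prolactin signalling, was at 716, 328 and 472, with its second probe set at 458, 491 and 525. The pools did not keep the same order in the 2 probe sets. Both are of letter types, the first a family type, so the signal of Stat5a may include that of its close paralog Stat5b. Stat5b was at 106, 193 and 42.2, Stat6, used by interleukin-4, was at or near the floor, and Stat4 was at the floor except for 99.9 in pool 3.

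The SOCS genes split between members. Socs2, a brake on growth hormone signalling, was at 494, 558 and 451 (501 ± 54.2), and Socs5 at 743, 991 and 655 (796 ± 174). The interferon-inducible brake Socs1 was at 145, 145 and 135, and Socs3, which is induced through STAT3, at 51.9, 46.7 and 42.2. All pools of the first pair lay above the bar and all pools of the second below it.

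**Figure D4:**
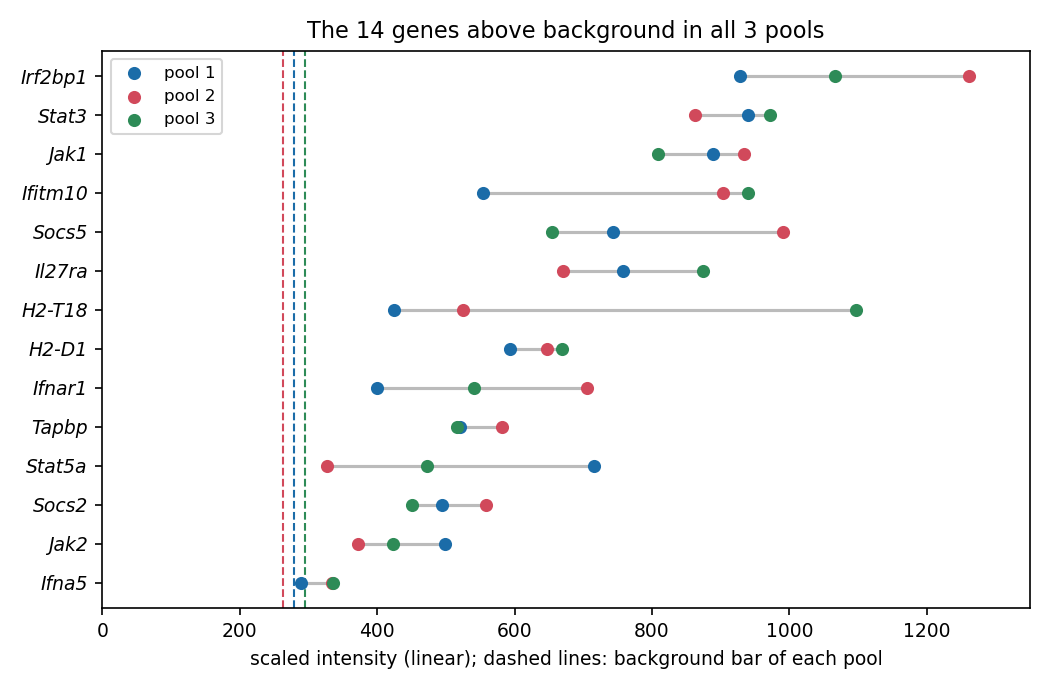
Scaled intensity (linear axis) in each pool for the 14 genes above background in all 3 pools, with dashed lines at each pool's bar (279, 263 and 295). H2-T18 spans 424 to 1097, whereas H2-D1, Stat3 and Jak1 stay within narrow ranges.

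Secreted ligands and their receptors were mostly below the bar. Of the 51 interferon, interleukin and chemokine genes 1 passed in all pools (Ifna5) and 18 were at the floor throughout. Of the 39 receptor genes 2 passed, Ifnar1 and Il27ra, and 10 were at the floor. Il27ra, the ligand-specific chain of the interleukin-27 receptor, was at 758, 671 and 875 (768 ± 103). Of the classical inflammatory cytokines, Il1b was at the floor in all pools, Il6 except for 65.7 in pool 3, and Il10 except for 44.9 there. The control probe sets of Il4 and Il10 were at 69.8 and 55.8 in pool 1 and at the floor in the others. Il6ra, which binds interleukin-6, was at 204, 161 and 127, and Il1r1, the signalling receptor of interleukin-1, at 75.2, 63.5 and 42.2. Outside the rule for named genes, Il17ra missed the bar in pools 2 and 3 at 328, 241 and 271, and Il9 at 314, 217 and 235.

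Chemokines and chemokine receptors had no gene above background in all pools, of 22 and 13. Ccl2, which draws monocytes, and Ccl5, which draws T cells, were at the floor in each pool, as was the monocyte receptor gene Ccr2. Cxcl10, an interferon-induced chemokine, was at the floor except for 65.3 in pool 3. Cxcl12, which guides migrating neurons and vessels, was at 102, 99.4 and 128 by its chosen probe set and lower by 2 others, and its receptor gene Cxcr4 was at 137, 171 and 161. Chosen after their values were seen, Ccl22 passed in pools 2 and 3 (270, 306 and 404), Cxcl14 in pool 1 (398, 141 and 258) and Ccl8 in pool 3 (42.2, 149 and 333).

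Irf2bp1 and H2-Ke6 carry matching symbols but have other roles. Irf2bp1, which encodes a corepressor that binds IRF2, was at 929, 1261 and 1066 (1085 ± 167). H2-Ke6, a hydroxysteroid dehydrogenase gene within the MHC region, was at 244, 144 and 170 by its chosen probe set and at 808, 715 and 614 by another that can be shared between transcripts. Without Irf2bp1, whose product is not a member of these pathways by itself, the group has 13 genes above background.

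Other genes of the same pathways, with symbols outside the pattern, were counted from 4 lists. Of 85 measured, 36 passed in all pools (42.4%), a share near that of all genes. With the bar at the 95th percentile 16 did, against 34.0% of all genes. In the antigen processing list 9 of 16 passed, among them the lysosomal proteases Lgmn and Ctsl and the immunoproteasome gene Psmb10 at 398, 428 and 454. That list shares Ifi30 with the members, and 2 other immunoproteasome genes were at or near the floor, Psmb9 at 42.2 in every pool and Psmb8 at 42.2, 42.2 and 63.7. In the list of cytokine receptors and regulators 16 of 30 passed. There Il6st, the signal-transducing receptor chain of the interleukin-6 family, was at 294, 365 and 306 (322 ± 38.4). Lifr, which pairs with it, was at 1802, 994 and 982, and Pias3, an inhibitor of STAT3, at 3478, 3172 and 2998. The receptor genes Cntfr (188, 147 and 146) and Osmr (97.6, 91.2 and 101) of that list were under the bar in every pool.

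In the interferon-induced and sensing list 4 of 21 passed: Ly6e (1395, 2052 and 1414), Tbk1 (738, 635 and 545), Trim25 (355, 431 and 343) and Pml (325, 315 and 405). The interferon effectors Usp18, Rsad2 and Iigp1 were at or near the floor. In the inflammatory signalling list 7 of 21 passed, among them Rela, the NF-kappa-B subunit, at 1255, 1565 and 1244 and its inhibitor Nfkbia at 797, 945 and 858. Tnf, Icam1 and Ptgs2, which NF-kappa-B induces in inflammation, were at the floor in all pools.

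**Figure D5:**
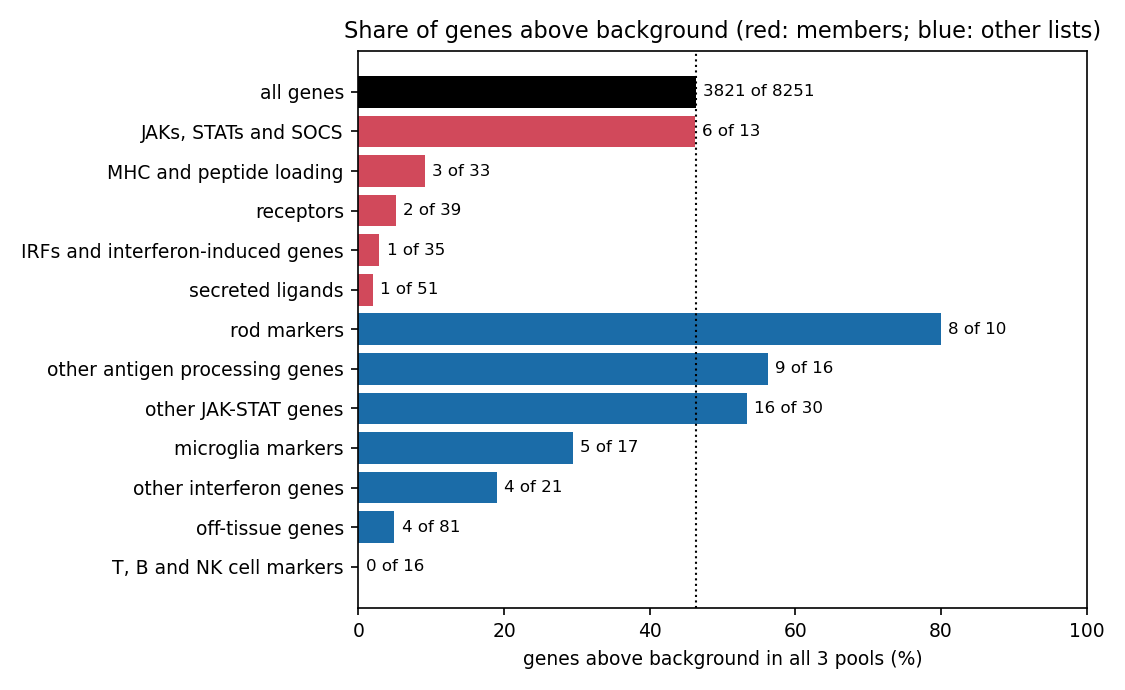
Share of genes above background in all 3 pools (percent, bars from 0, counts beside them) for all genes (black, 46.3%, dotted line), 5 classes of the genes described here (red) and other lists (blue). The JAK, STAT and SOCS class lies next to the line with 6 of 13, and the other red classes lie between 1.96% and 9.09%.

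Markers checked the tissue and the immune cells it could hold. All 8 measured markers of retinal neurons and 8 of 10 of rods were above background, such as Sag, the rod arrestin gene, at 12304, 15211 and 13639. Of 17 microglia markers 5 passed: Cx3cr1 (402, 357 and 578), C1qa, C1qc, Ctss and Cd14, whereas Fcer1g and Itgam were at the floor. The summed level of the microglia list was 3583, 3659 and 3687. No marker of T, B and NK cells passed in all pools, of 16, and Cd3d, Cd3g, Cd8a, Cd8b1, Cd22 and Klrd1 were at the floor. The granulocyte and mast cell list had 2 of 12 (Csf3r and Tpsb2), and the vessel list 2 of 12 (Kdr and Eng).

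Among the genes described here, differences between pools could be tested only for the brighter ones. Of the 207 probe sets 38 were in the brighter part of the array, where spread beyond that of probe sets of like brightness was tested with limma. One of the 38 was called, while 1.34% of all tested probe sets were (83 of 6211), so the count says little about the group. Unadjusted p-values under 0.05 were found for 5 of the 38 and for 420 of the 6211. Of the 38, 89.5% differed by less than 2-fold between pools 1 and 2, 94.7% between 1 and 3, and 89.5% between 2 and 3. The shares of all tested probe sets were 96.3%, 95.3% and 96.3%. The call was a probe set of H2-M10.1, a non-classical class I gene known from vomeronasal neurons, at 307, 108 and 687 (limma adjusted p = 0.000922), high in pool 3 and low in pool 2. It was not called without scaling (limma adjusted p = 0.281), after quantile normalisation (0.238) or without pool 2 (0.979), and without pool 3 it was too dim to be tested. The other probe sets of the gene were at 251, 325 and 455 and at 42.2, 42.2 and 48.3, also highest in pool 3 but without the low value in pool 2. The family-type probe set of H2-T18, high in pool 3, had a limma adjusted p of 0.177.

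The 14 genes above background varied by a median SD of 0.20 on the log2 scale, against 0.23 for all genes above background. In 12 of the 14 the highest pool was less than 2-fold above the lowest, the exceptions being H2-T18 and Stat5a. The highest value lay in pool 1 for 2 genes, in pool 2 for 6 and in pool 3 for 6, where the shares of all genes above background were 25.9%, 56.3% and 17.8%. The summed level of the T, B and NK cell markers was 1242, 1303 and 1858 in pools 1, 2 and 3. Of that list Cd4 (232, 262 and 622), Prf1, Ighm and Ms4a1 were highest in pool 3, Cd79a (176, 104 and 84.4) and Cd79b in pool 1, and Cd2, Cd3e, Gzma and Gzmb in pool 2. Markers of lens summed to 26974, 127542 and 136902 over 12 genes, with Cryaa at 7413, 38200 and 39990, and red blood cell genes to 4061, 8090 and 4150. The part of these in the values above was not tested.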

How the data were processed

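The values deposited by the authors were 1 intensity per probe set and array, on a linear scale; which software made them, and how it treated background, is not given in the sources used here. Trimmed by 2% at each end, array means were 499.8, 499.7 and 499.5, so arrays had been scaled. Names came from the platform annotation, updated by gene ID through RefSeq (GRCm38.p6).

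Arrays were brought to a common median over non-control probe sets (factors 0.962, 1.09 and 0.959), floored at 42.2 and put on the log2 scale. A gene was read by 1 probe set, one without a letter suffix first, then the highest mean. Off-tissue genes numbered 92, of which 81 were measured and 4 passed their own bar in all pools. Spread was tested with limma 3.58.1 (squeezeVar, robust, mean level as covariate, R 4.3.3) on the brightest 50% of all probe sets. Its highest prior degrees of freedom, 279, served for every probe set, and p-values were adjusted by Benjamini-Hochberg at 0.05. The test was also run on data simulated from its own fitted variances, so its assumptions held there by design. P-values measure the spread between these pools, part of which may be technical, and 3 arrays limit the precision. Members and lists were chosen with earlier results of these data known. Some roles (the H2-DM genes, H2-Ke6 and Il1rn) were corrected, and the pooled classes and promoters shown were chosen, after values were seen. Named genes were a written core list, up to 4 others per role above background, and any with a called probe set. Members outside it (such as Oas1g, Ifitm1, Ifitm2, Stat4 and H2-Ke6) were picked after their values were seen.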

Additional observations from a re-analysis of the deposited data

How the results depend on the processing

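All alternatives were planned. The count of genes above background (14) was 38 with the bar at the 75th percentile and 25 when only the mean had to pass; with other scalings, probe set choices or symbols, or a stricter bar, it was 10 to 14. The bar moves with each array, so scaling could hardly change it. By probe set the count (19) was 47, 11 and 33 with the bar at the 75th percentile, at the 95th and for the mean. Of 53 named genes 24 in place of 14 passed the 75th percentile, and of 85 other pathway genes 16 in place of 36 passed the 95th. Leaving out each pool in turn gave 15 to 19 genes, 21 to 24 probe sets, 14 to 16 named genes, 36 to 38 other pathway genes and 0 to 1 probe sets with excess spread.

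The count of probe sets with excess spread by limma was 0 in 4 alternatives, where unadjusted p-values below 0.05 numbered 4 (arrays unscaled), 2 (quantile normalisation), 3 (dim probe sets kept) and 0 of 7 tested (brightest 25%). Calls over all probe sets fell from 83 to 6, 6, 0 and 27 in the same settings, so the loss was not particular to these genes. Without pool 2 and without pool 3 the count among these genes was 0 (2 and 3), with 9 and 23 called over all probe sets. The cause was not tested. Signal near background limits most of these genes. No paired analysis was possible because there was 1 group and the labels give no replicate numbers.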
